A study of Mus musculus with 16 samples.

Results

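A set of 9 genes whose products restrain NF-kB signalling was followed in Paneth cells sorted from mouse small intestine: Nfkbia, Nfkbib, Nfkbie, Nfkbiz, Tnfaip3, Tnip1, Bcl3, Cyld and Zc3h12a. They were chosen by name, for the function of their proteins, and are 9 of the 55414 genes in the deposited count table. All 9 passed the low-count filter, which kept 11809 genes for testing. Per the study's methods, the Paneth cells were sorted from C57BL/6J mice by fluorescence-activated cell sorting, and each library came from an individual mouse. Every mouse received a pair of injections 1 h apart and was sampled 3 h after the second injection. The 4 groups are named by the first and second injection: PBS+PBS (vehicle only), PBS+TNF (tumour necrosis factor after vehicle), DEX+PBS (DEX before vehicle) and DEX+TNF (DEX before TNF). DEX is not spelled out in the labels or the methods; it usually stands for the synthetic glucocorticoid dexamethasone. Each group holds 4 libraries. Doses and the age of the mice were not given in the sources used here.

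NF-kB is a family of transcription factor dimers that rests in the cytoplasm, bound by inhibitor of kB (IkB) proteins. TNF bound to its receptor sets off ubiquitin chain building and IkB kinase activation, the IkB proteins are degraded, and the freed dimers enter the nucleus and switch on inflammatory genes. Several of the induced genes encode inhibitors of the same route, which closes a negative feedback loop, and glucocorticoids are used as drugs that dampen many NF-kB responses. Paneth cells, which release antimicrobial peptides at the base of the intestinal crypts, express TNF receptor and respond to TNF.

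All 9 genes are annotated as protein coding. On the GRCm39 assembly (GENCODE M39 annotation), the genes of the classical cytoplasmic IkB proteins lie at chr12:55535332-55539432 on the minus strand (Nfkbia, ENSMUSG00000021025), chr7:28457486-28466937 on the minus strand (Nfkbib, ENSMUSG00000030595) and chr17:45866585-45874661 on the plus strand (Nfkbie, ENSMUSG00000023947). The genes of the nuclear IkB proteins lie at chr16:55631738-55659262 (Nfkbiz, ENSMUSG00000035356) and chr7:19541553-19557570 (Bcl3, ENSMUSG00000053175), both on the minus strand. Tnfaip3 (chr10:18874201-18891405, minus strand, ENSMUSG00000019850), Tnip1 (chr11:54796320-54854661, minus strand, ENSMUSG00000020400) and Cyld (chr8:89423468-89478574, plus strand, ENSMUSG00000036712) encode proteins that act on ubiquitin chains. Zc3h12a (chr4:125012216-125021711, minus strand, ENSMUSG00000042677) encodes an RNase.

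The start of each gene was searched for the 10-base NF-kB binding consensus (the kB consensus) on both strands, from 250 bases before to 50 bases after the first base of the canonical transcript. A match was present in 4 of the 9 genes, and in 8.97% of the 21757 protein-coding gene starts searched the same way. Tnfaip3 held a match at 2 places, which 1.33% of all the starts did. The matches are shown because they are the elements through which NF-kB can act on its own inhibitors; whether NF-kB was bound there was not measured. They are written 5′ to 3′ on the coding strand, with the kB consensus in capitals and 10 bases on either side. The windows were chr12:55539383-55539682 for Nfkbia, chr17:45866356-45866655 for Nfkbie, chr10:18891137-18891436 for Tnfaip3 and chr8:89423426-89423725 for Cyld.
Nfkbia, first capital at -29: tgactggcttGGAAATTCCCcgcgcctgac
Nfkbie, first capital at -86: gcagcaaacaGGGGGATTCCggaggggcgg
Tnfaip3, first capital at -97: gactcacgcgGGGACACCCCggggcgggac
Tnfaip3, first capital at 17: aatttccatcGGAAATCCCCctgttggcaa
Cyld, first capital at -175: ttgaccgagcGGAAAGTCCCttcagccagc
The consensus was read from the coding strand in Nfkbie and from the opposite strand in Nfkbia, Cyld and the downstream place in Tnfaip3. The upstream place in Tnfaip3 matched on both strands. These letters were not in the windows of Nfkbib, Nfkbiz, Tnip1, Bcl3 and Zc3h12a. The windows of Nfkbib (chr7:28466016-28466315), Nfkbiz (chr16:55642870-55643169), Tnip1 (chr11:54847181-54847480) and Bcl3 (chr7:19556813-19557112) lay inside the gene coordinates given above. The matches of Tnfaip3 and Cyld also lay inside the coordinates of their genes, while those of Nfkbia and Nfkbie lay outside. Starts of transcripts other than the canonical one were not searched.

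Library totals ran from 7286307 to 15832111 counts, and the alpha-defensin (Defa) genes took 32.2% to 59.3% of them. Levels are given as normalized CPM, which are read counts brought to a common library size with scaling factors of 0.418 to 1.502. All 10 markers of Paneth cells had counts in every group. The DEX+TNF group was not uniform, and its libraries have to be read one by one. Its libraries 1 and 2 resembled each other more than any other of the 24 within-group pairs did (chi-square per degree of freedom 8.78, next pair 23.5, highest 344), and still differed by more than sampling noise. The median of 16 NF-kB target genes that are not among the 9 lay 4.57 and 4.39 above the PBS+PBS mean on the log2 scale in libraries 1 and 2, 0.09 and 0.97 above it in libraries 3 and 4, and 3.72 to 4.28 above it in the PBS+TNF libraries. Results that use DEX+TNF are therefore given with all 4 libraries, without libraries 3 and 4, and without libraries 1 and 2. Both of these omissions were decided on after the values had been seen. Since they follow the levels of these genes, a log2 fold change that uses DEX+TNF is then given as a description, with no test.

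Injection of TNF after vehicle raised 8 of the 9 inhibitors. All 9 had a positive log2 fold change in PBS+TNF versus PBS+PBS, with a median of 3.25, against -0.03 over all tested genes. The 8 increases passed an adjusted p of 0.05 by the quasi-likelihood test of edgeR, at which 7.15% of all tested genes were called higher. DESeq2 called the same number of the 9, and 9.7% of all tested genes higher. The same 8 genes had no overlap between the 4 PBS+TNF and the 4 PBS+PBS libraries, with higher levels after TNF, as 10.8% of all tested genes had. Nfkbiz was the exception in both counts. In bulk RNA of sorted cells, fewer cells of a type and less RNA per cell cannot be told apart. Of 18 markers of immune cells, which also express these inhibitors, 4 had counts in PBS+PBS and 5 in PBS+TNF, with summed levels of 31.6 to 115 and 28.4 to 99.0 CPM. Lyz2, a myeloid lysozyme gene, held 20.05 to 114 CPM over the 16 libraries and Ptprc, the gene of the pan-leukocyte protein CD45, 0 to 21.0 CPM. The other markers stayed at 0.633 CPM or less, among them Cd79a at up to 0.149 CPM, while the lymphocyte markers Cd3e, Cd3g, Cd8a, Cd4 and Ms4a1 were at 0 in all libraries. Lyz1, the lysozyme gene among the Paneth cell markers, stood at 41288 to 222948 CPM. How reads that match several genes were counted is not given, so the level of Lyz2 is uncertain.

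**Figure D1:**
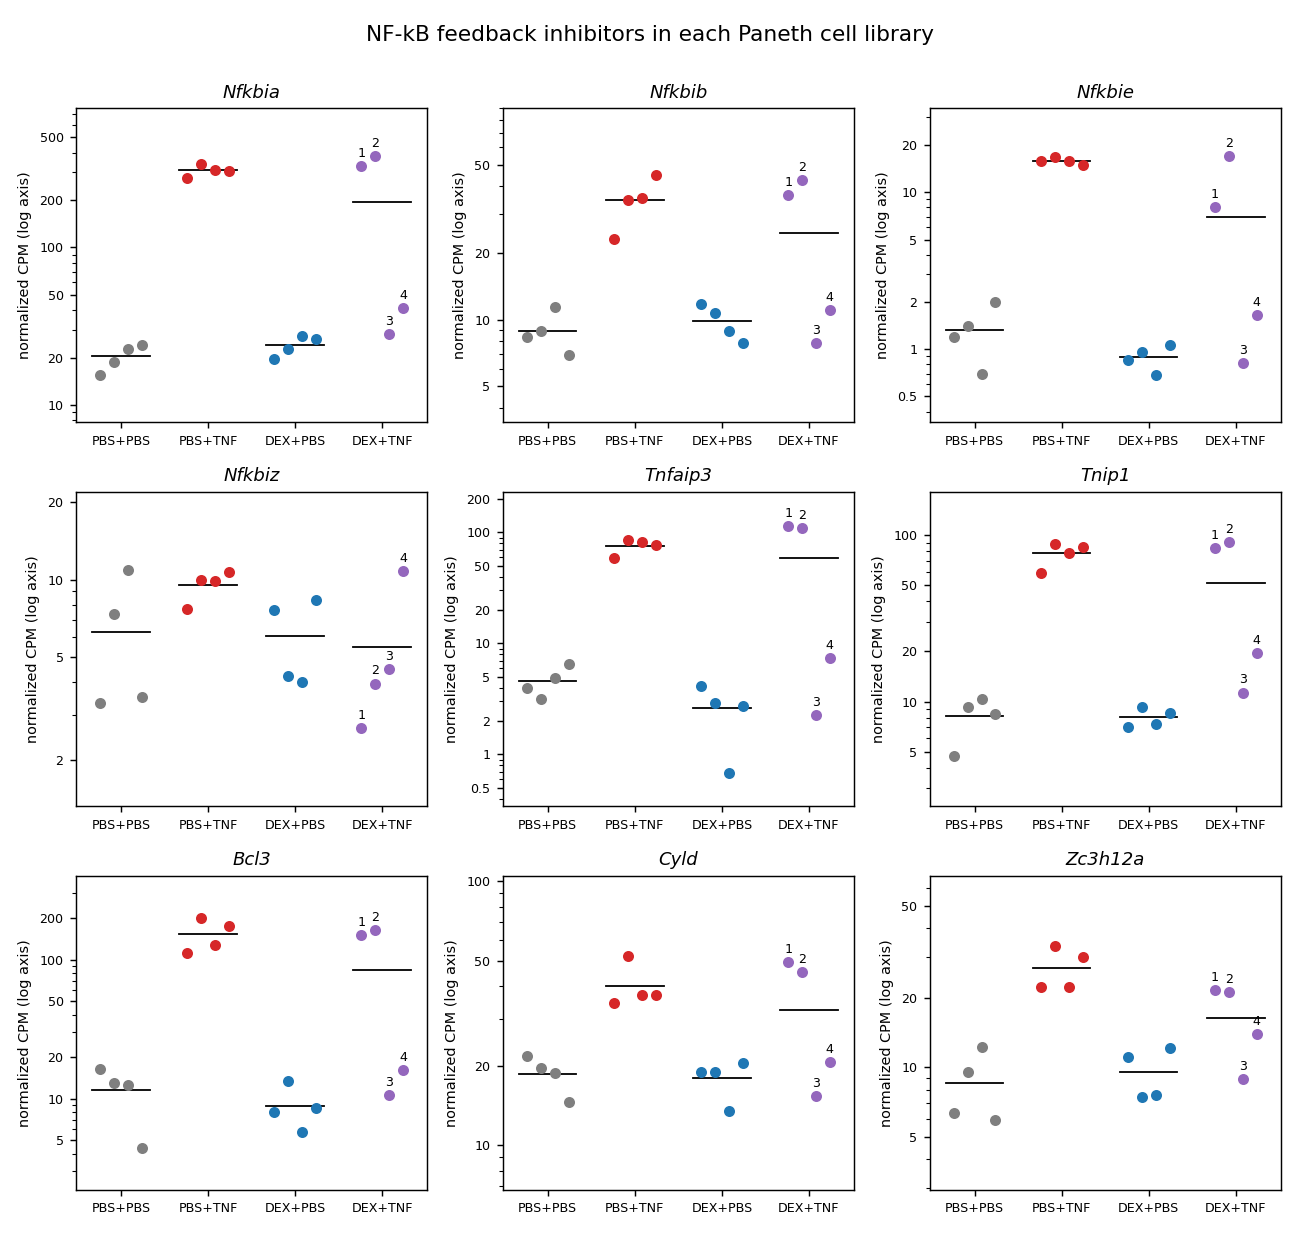
Normalized CPM (log axis) of each of the 9 genes in the 16 libraries, by injection group, with 1 point per library and a line at the group mean (n = 4). The numbers beside the DEX+TNF points are library numbers: for every gene but Nfkbiz, libraries 1 and 2 stand above libraries 3 and 4.

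Nfkbia encodes IkB-alpha, the IkB protein that is degraded first after TNF and resynthesised fastest. Its level was 15.6, 18.8, 22.7 and 24.1 CPM in the PBS+PBS libraries and 277, 337, 311 and 308 CPM in the PBS+TNF libraries. The lowest library after TNF was thus far above the highest without it. The mean went from 20.3 ± 3.88 to 308 ± 24.8 CPM (SD, n = 4 each), a log2 fold change of 3.92 (SE 0.63, adjusted p = 0.00128), or 15.2-fold. The DEX+PBS libraries held 19.5, 22.7, 27.3 and 26.1 CPM. In DEX+TNF, libraries 1 and 2 held 330.0 and 382 CPM, as high as PBS+TNF or higher, while libraries 3 and 4 held 28.3 and 41.0 CPM, against 27.3 CPM in the highest DEX+PBS library.

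Nfkbib encodes IkB-beta, which is degraded and rebuilt more slowly. Its level was 8.40, 8.94, 11.4 and 6.91 CPM in PBS+PBS and 23.1, 34.8, 35.3 and 45.0 CPM in PBS+TNF. The groups were again apart, with less distance than for Nfkbia. The mean went from 8.92 ± 1.88 to 34.6 ± 8.96 CPM (SD, n = 4 each), a log2 fold change of 1.95 (SE 0.42, adjusted p = 0.00651). The DEX+PBS libraries held 11.8, 10.7, 8.93 and 7.85 CPM, and the DEX+TNF libraries 36.5, 42.7, 7.86 and 11.1 CPM. Libraries 3 and 4 of DEX+TNF fell inside the range of DEX+PBS.

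Nfkbie, the gene of IkB-epsilon, was the least abundant of the 9 at rest, at 1.20, 1.40, 0.694 and 2.01 CPM in PBS+PBS, from 65 counts summed over these 4 libraries. After TNF it stood at 15.8, 16.8, 15.9 and 15.0 CPM (890 counts). The 4 PBS+TNF libraries lay closer together than for any other of the 9 genes, with a highest to lowest ratio of 1.12. The log2 fold change was 3.62 (SE 0.66, adjusted p = 0.00261). DEX+PBS libraries held 0.850, 0.965, 0.687 and 1.07 CPM. In DEX+TNF, library 2 reached 17.1 CPM, library 1 stood between the groups at 8.07 CPM, and libraries 3 and 4 held 0.817 and 1.65 CPM.

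Tnfaip3 encodes A20, a ubiquitin-editing enzyme that takes activating ubiquitin chains off the TNF receptor complex. It showed the largest log2 fold change of the 9 after TNF, at 4.05 (SE 0.87, adjusted p = 0.00679), or 16.6-fold. The PBS+PBS libraries held 3.94, 3.13, 4.91 and 6.53 CPM and the PBS+TNF libraries 58.9, 86.0, 82.5 and 76.5 CPM. No PBS+TNF library came near the resting range. The DEX+PBS libraries held 4.13, 2.89, 0.687 and 2.75 CPM, library 3 being the lowest value of this gene, from 6 counts. DEX+TNF spanned from 115 and 109.6 CPM in libraries 1 and 2, above every PBS+TNF library, to 2.25 and 7.38 CPM in libraries 3 and 4. The 51.3-fold ratio of highest to lowest library was the widest within any group of any of the 9 genes.

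Tnip1 encodes ABIN1, a ubiquitin-binding partner of A20. It held 4.71, 9.26, 10.3 and 8.42 CPM in PBS+PBS and 59.3, 88.4, 78.7 and 84.7 CPM in PBS+TNF, and the mean went from 8.17 ± 2.43 to 77.8 ± 12.9 CPM (SD, n = 4 each). The groups did not overlap. The log2 fold change was 3.25 (SE 0.51, adjusted p = 0.00116), the smallest adjusted p of the 9. The DEX+PBS libraries held 7.04, 9.28, 7.33 and 8.57 CPM, and the DEX+TNF libraries 83.8, 90.6, 11.3 and 19.7 CPM. All 4 DEX+TNF libraries thus lay above the highest DEX+PBS library. Gpx3, on the opposite strand, shares 2603 bp or 25.3% of the exon length of Tnip1, and stood at 0.573 CPM or less in every library.

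Cyld encodes a deubiquitinase that removes linear and lysine-63 chains and, unlike A20, is present in most cells at rest. Its PBS+PBS libraries held 21.8, 19.5, 18.7 and 14.6 CPM and its PBS+TNF libraries 34.5, 52.3, 37.0 and 37.1 CPM. Library 2 of PBS+TNF stood apart from the other three, and the groups did not overlap. The log2 fold change of 1.11 (SE 0.31, adjusted p = 0.0262) was the smallest of the 8 called. The call was lost when PBS+PBS 2, PBS+PBS 3, PBS+PBS 4 or PBS+TNF 2 was left out, with a highest adjusted p of 0.0812, and the log2 fold change then stayed between 0.96 and 1.19 over all 16 omissions. The DEX+PBS libraries held 18.9, 18.9, 13.5 and 20.4 CPM, and the DEX+TNF libraries 49.3, 45.4, 15.3 and 20.6 CPM.

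Bcl3 and Nfkbiz encode atypical IkB proteins that act in the nucleus on p50 or p52 dimers. Both can raise as well as lower transcription from NF-kB sites, so that the word inhibitor covers only part of what they do. Bcl3 held 16.4, 12.8, 12.5 and 4.40 CPM in PBS+PBS and 111, 199.6, 128 and 176 CPM in PBS+TNF. The groups were far apart, with a log2 fold change of 3.73 (SE 0.71, adjusted p = 0.00322), or 13.2-fold. In DEX+PBS it held 8.01, 13.3, 5.73 and 8.51 CPM. DEX+TNF libraries 1 and 2 held 151 and 163 CPM, inside the range of PBS+TNF, and libraries 3 and 4 held 10.5 and 16.2 CPM.

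Nfkbiz, the gene of IkB-zeta, was not called after TNF, unlike the other 8. Its PBS+PBS libraries held 3.34, 7.34, 10.9 and 3.52 CPM and its PBS+TNF libraries 7.71, 9.95, 9.84 and 10.7 CPM. The highest value of the 2 groups was a PBS+PBS library, and the log2 fold change of 0.59 (SE 0.43, adjusted p = 0.416) did not pass the test in the full fit or under any of the 25 alternatives planned. It ran from 0.38 to 1.00 when each library was left out. Without PBS+PBS 3, which held the 10.9 CPM, all 9 genes had an unadjusted p under 0.05 in edgeR, as did 24.3% of all tested genes. The DEX+PBS libraries held 7.65, 4.22, 4.01 and 8.31 CPM. In DEX+TNF the order of the libraries was turned around, since libraries 1 and 2 had the lowest levels, 2.66 and 3.96 CPM, while library 3 had 4.49 and library 4 had 10.8 CPM.

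Zc3h12a encodes Regnase-1, an RNase that cuts inflammatory mRNAs. Its level was 6.34, 9.58, 12.3 and 5.90 CPM in PBS+PBS and 22.3, 33.6, 22.3 and 29.96 CPM in PBS+TNF. The groups did not overlap, and the log2 fold change was 1.66 (SE 0.31, adjusted p = 0.00274), or 3.15-fold. It held 11.04, 7.41, 7.56 and 12.2 CPM in DEX+PBS. In DEX+TNF it held 21.5, 21.1, 8.88 and 13.9 CPM, so that the distance between libraries 1 and 2 and libraries 3 and 4 was smaller than for the other 7 genes in which 1 and 2 were the higher.

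**Figure D2:**
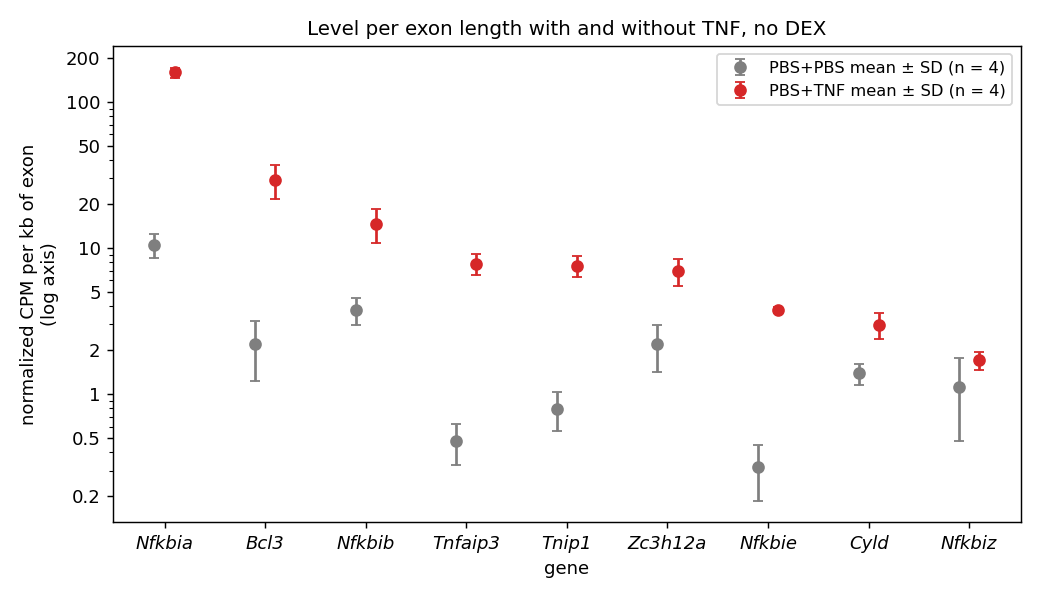
Mean ± SD (n = 4) of normalized CPM per kb of exon (log axis) for the 9 genes in PBS+PBS and PBS+TNF, ordered by the PBS+TNF level. Nfkbia is first in both groups, at 10.5 and 159, Bcl3 passes Nfkbib after TNF, and Tnfaip3 moves up from 0.477 to 7.82.

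Levels of different genes were compared per kb of exon. At rest, in PBS+PBS, the level per kb was 10.5 ± 2.00 CPM for Nfkbia, 3.78 ± 0.797 for Nfkbib, 2.20 ± 0.966 for Bcl3 and 2.19 ± 0.769 for Zc3h12a (SD, n = 4 each). Cyld (1.38 ± 0.223), Nfkbiz (1.12 ± 0.639), Tnip1 (0.793 ± 0.236), Tnfaip3 (0.477 ± 0.151) and Nfkbie (0.317 ± 0.130) followed. Nfkbia and Nfkbib stood apart from their neighbours in this order by more than the SD, whereas Bcl3 and Zc3h12a, Cyld and Nfkbiz, and Nfkbiz and Tnip1 differed by less than the larger SD of the pair. After TNF the order was Nfkbia (159 ± 12.8), Bcl3 (29.3 ± 7.84), Nfkbib (14.7 ± 3.80), Tnfaip3 (7.82 ± 1.24), Tnip1 (7.55 ± 1.26), Zc3h12a (6.95 ± 1.45), Nfkbie (3.79 ± 0.177), Cyld (2.99 ± 0.606) and Nfkbiz (1.70 ± 0.229). Tnfaip3, Tnip1 and Zc3h12a could not be ordered, as they differed by less than their SD. The exon length is the union over all annotated transcripts, which understates the level of a gene that uses a short transcript.

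For DEX without TNF, no difference in the 9 genes passed the test. In DEX+PBS versus PBS+PBS, 0 of the 9 were called with edgeR, where 0.00847% of all tested genes were, and 0 with DESeq2, where 0.0593% were. No member had an unadjusted p under 0.05 in edgeR, and 1.9% of all tested genes had one. All adjusted p-values were 1. The log2 fold changes ran from -0.80 for Tnfaip3 (SE 0.84) to 0.24 for Nfkbia (SE 0.57), 3 above and 6 below 0, with a median of -0.06. In every one of the 9 the DEX+PBS and PBS+PBS libraries overlapped, where 0.999% of all tested genes had no overlap and were higher after DEX and 0.881% were lower. The SE of the 9 values ran from 0.30 to 0.84.

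Genes known to be induced by glucocorticoids were read in the same libraries, as a check on the first injection. Sgk1, which encodes a kinase that regulates ion transport, stood at 17.6 to 48.5 CPM after DEX alone and at 1.11 to 3.64 CPM in the vehicle group (log2 fold change 3.76, SE 0.50, adjusted p = 0.00998). In DEX+TNF it held 24.8, 32.4, 33.6 and 114.6 CPM, every library above the PBS+TNF range of 4.82 to 7.94 CPM. Fkbp5, the gene of a co-chaperone of the glucocorticoid receptor, held 43.2, 44.5, 44.6 and 135 CPM in DEX+TNF and 12.3 to 31.0 CPM in PBS+TNF. Tsc22d3, the gene of the glucocorticoid-induced leucine zipper protein, held 11.4, 10.7, 24.9 and 49.4 CPM in DEX+TNF and 4.82 to 7.13 CPM in PBS+TNF. These 3 genes thus placed all 4 DEX+TNF libraries above PBS+TNF, with library 4 the highest in each. For Tsc22d3, libraries 1 and 2 still lay inside the PBS+PBS range of 10.1 to 16.8 CPM and under the DEX+PBS range of 20.3 to 27.0 CPM. Its log2 fold change in PBS+TNF versus PBS+PBS was -1.06 (SE 0.38, adjusted p = 0.0776). Neither Fkbp5 (log2 fold change 2.27, SE 0.44, adjusted p = 0.282) nor Tsc22d3 (0.88, SE 0.37) was called by edgeR in DEX+PBS versus PBS+PBS. In DEX+TNF versus PBS+TNF, Sgk1 (log2 fold change 3.06, SE 0.48, adjusted p = 0.0236) and Tsc22d3 (2.00, SE 0.39, adjusted p = 0.0344) passed the test and Fkbp5 (1.65, SE 0.43, adjusted p = 0.109) did not. Of 22 tested glucocorticoid-induced genes, edgeR called 1 higher in DEX+PBS versus PBS+PBS (Sgk1) and 5 higher in DEX+TNF versus PBS+TNF, with 0 lower in either. DESeq2 called 5 of them in the first comparison, all higher, and 9 in the second, 8 higher and 1 lower. Of all tested genes, edgeR called 0.00847% and 0.339% in these comparisons, in either direction, and DESeq2 0.0593% and 2.32%. The edgeR call of Sgk1 in DEX+PBS versus PBS+PBS was lost without PBS+PBS 1, 2 or 3. The 5 calls in DEX+TNF versus PBS+TNF became 3 without a low-count filter, and 0 when any one PBS+TNF library, DEX+TNF 3 or DEX+TNF 4 was left out. Called or not, 19 of the 22 had a log2 fold change above 0 in DEX+PBS versus PBS+PBS and 16 in DEX+TNF versus PBS+TNF. Over all tested genes, 47% and 53% had. The list also responded to TNF alone, after which edgeR called 7 of the 22 higher and 0 lower, where 7.15% of all tested genes were called higher.

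**Figure D3:**
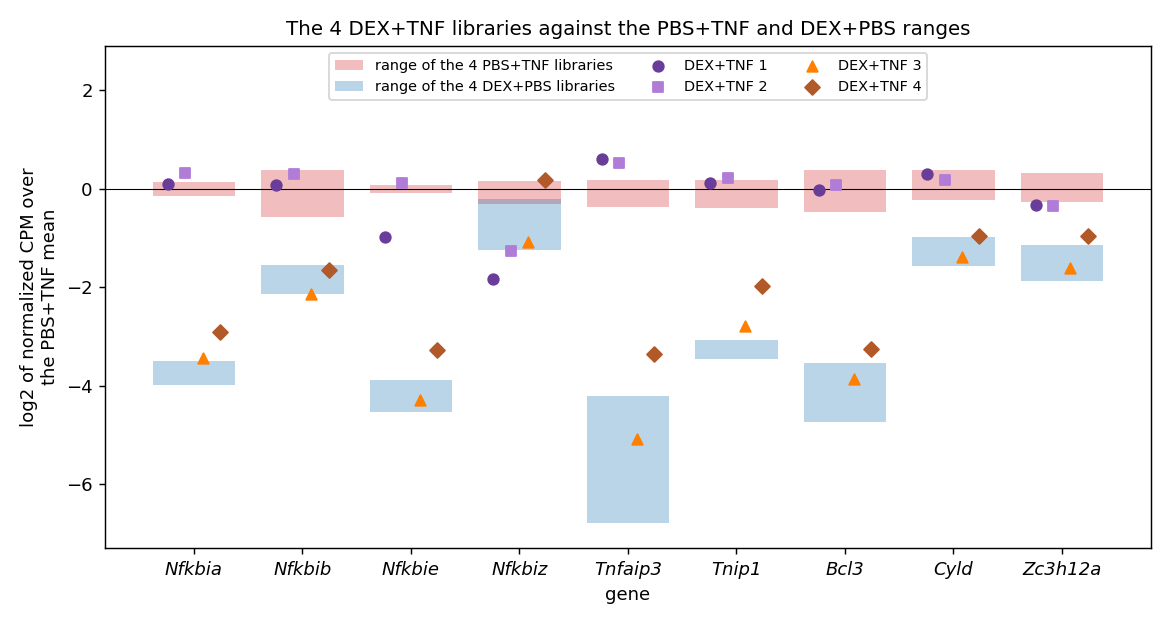
Level of each of the 9 genes in DEX+TNF libraries 1 to 4, as log2 of normalized CPM over the PBS+TNF mean, with shaded bands for the range of the 4 PBS+TNF and the 4 DEX+PBS libraries. In all genes but Nfkbiz, libraries 1 and 2 stand above libraries 3 and 4. Library 1 is below the PBS+TNF band for 3 of the 9 genes and library 2 for 2. Library 3 is within the DEX+PBS band for 7 of the 9, and library 4 is above that band for 8.

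For most of the 9 genes, the direction of the difference between DEX+TNF and PBS+TNF depended on which DEX+TNF libraries were counted. For Nfkbie, Nfkbiz and Zc3h12a the log2 fold change was below 0 both without libraries 3 and 4 and without libraries 1 and 2. Library 1 was within the PBS+TNF range for 5 genes, above it for 1 (Tnfaip3) and below it for 3 (Nfkbie, Nfkbiz and Zc3h12a). Library 2 was within that range for 3 genes, above it for 4 (Nfkbia, Nfkbie, Tnfaip3 and Tnip1) and below it for 2 (Nfkbiz and Zc3h12a). The median over the 9 genes of the level relative to the PBS+TNF mean was 1.06 and 1.13 in libraries 1 and 2, in that order. Library 3 was below the PBS+TNF range for all 9 genes, with a median of 0.146 of the PBS+TNF mean, and within the DEX+PBS range for 7. Library 4 was below the PBS+TNF range for 8 genes, with a median of 0.253, but above the DEX+PBS range for 8. Relative to the DEX+PBS mean, the medians were 9.03, 11.3, 0.914 and 1.78 in libraries 1 to 4. The counts inside and outside these ranges were not made over all tested genes, so how common such positions are in each library is not known.

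The lower of libraries 1 and 2 exceeded the higher of libraries 3 and 4 by 14.9-fold for Tnfaip3, 9.32-fold for Bcl3, 8.04-fold for Nfkbia, 4.90-fold for Nfkbie, 4.25-fold for Tnip1, 3.30-fold for Nfkbib, 2.21-fold for Cyld and 1.52-fold for Zc3h12a. For Nfkbiz the same ratio was 0.247. Libraries 1 and 2 were thus both the higher in 8 of the 9 genes, as in 30.9% of all tested genes, and by at least 2-fold in 7 of the 9, as in 5.76% of all tested genes. This is a description of 4 libraries whose order was seen first, and has no test. Summed markers of tuft cells, enterocytes, enteroendocrine cells and stem cells were lower in libraries 1 and 2 than in libraries 3 and 4. The 6 tuft cell markers summed to 1.45, 0.162, 155 and 574 CPM in DEX+TNF libraries 1 to 4, with 3, 5, 1 and 0 of them at 0, against 3.08 to 42.0 CPM in PBS+PBS, 3.86 to 127 CPM in PBS+TNF and 17.8 to 96.1 CPM in DEX+PBS. The 10 enterocyte markers summed to 17.1, 21.7, 55.5 and 431 CPM in the same order, with 4, 8, 1 and 0 at 0, against 25.4 to 295 CPM in PBS+PBS, 25.7 to 75.6 CPM in PBS+TNF and 39.1 to 47.5 CPM in DEX+PBS. The 6 stem cell markers summed to 612, 562, 754 and 1573 CPM, against 502 to 1126 CPM in PBS+TNF and 555 to 1155 CPM in DEX+PBS. The 8 goblet cell markers summed to 4458, 6448, 4422 and 2643 CPM, every library below the PBS+TNF range of 6535 to 8381 CPM, against 4220 to 7741 CPM in DEX+PBS. The part of these cells in the result was not tested.

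With all 4 libraries, 0 of the 9 genes were called in DEX+TNF versus PBS+TNF by edgeR, which called 0.339% of all tested genes, and 0 by DESeq2, which called 2.32%. All 9 log2 fold changes were below 0, with a median of -0.66 against 0.03 over all tested genes. They were -1.20 for Nfkbie (SE 0.58), -0.86 for Bcl3 (SE 0.64), -0.79 for Nfkbiz (SE 0.43), -0.73 for Zc3h12a (SE 0.30) and -0.66 for Nfkbia (SE 0.56), and from -0.60 to -0.30 for Tnip1, Nfkbib, Tnfaip3 and Cyld. Zc3h12a was the single member with an unadjusted p under 0.05 in edgeR (0.0256, adjusted p = 0.333), where 11.9% of all tested genes had one. It was also the single member without overlap between the groups, its highest DEX+TNF library (21.5 CPM) standing just under its lowest PBS+TNF library (22.3 CPM), while 2.91% of all tested genes were lower in DEX+TNF without overlap.

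Leaving out DEX+TNF 3 and 4, the log2 fold change in DEX+TNF versus PBS+TNF was above 0 in 6 of the 9, from 0.028 for Bcl3 to 0.57 for Tnfaip3. Nfkbiz was the lowest at -1.53, followed by Zc3h12a at -0.34 and Nfkbie at -0.33. Leaving out DEX+TNF 1 and 2 instead, all 9 were below 0, from -0.32 for Nfkbiz and -1.17 for Cyld to -3.53 for Bcl3, -3.63 for Nfkbie and -3.94 for Tnfaip3, and Nfkbia stood at -3.16. These values restate the levels by which the libraries were set apart.

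The response to TNF after DEX was compared in DEX+TNF versus DEX+PBS. Nfkbia (log2 fold change 3.03, SE 0.61), Tnip1 (2.67, SE 0.50) and Tnfaip3 (4.47, SE 0.90) were called higher, each at an adjusted p of 0.0456, so that 3 of the 9 passed where 0.322% of all tested genes were called higher. Bcl3 (3.25, SE 0.70, adjusted p = 0.0596) and Nfkbie (2.91, SE 0.67, adjusted p = 0.0807) did not pass with edgeR, and passed with DESeq2, which called 5 of the 9 and 1.85% of all tested genes higher. Nfkbib (1.32), Cyld (0.86) and Zc3h12a (0.78) had adjusted p-values of 0.201 to 0.337, and Nfkbiz stood at -0.13 (adjusted p = 0.988). The groups did not overlap for Nfkbia and Tnip1, with DEX+TNF the higher, and 2.06% of all tested genes had this. The 3 edgeR calls stood close to the threshold: they were lost when any one of the 12 libraries outside DEX+TNF, or DEX+TNF 1 or 2, was left out, and without a low-count filter. With only the libraries of the groups compared in the fit, they had an adjusted p of 0.407. Without DEX+TNF 3, 7 of the 9 were called, and without DEX+TNF 4, 6 were. In these fits 15.1% and 14.5% of all tested genes had an unadjusted p under 0.05 in edgeR, against 10.4% with all libraries. Over all tested genes, 40 were called in this comparison with all libraries, and 0 to 362 when each library was left out. Libraries 3 and 4 held the lower levels of most of the 9, so that the counts without them are a description.

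Leaving out both DEX+TNF 3 and 4, the log2 fold change in DEX+TNF versus DEX+PBS was 5.41 for Tnfaip3, 4.13 for Bcl3, 3.90 for Nfkbia, 3.77 for Nfkbie, 3.43 for Tnip1, 2.02 for Nfkbib, 1.40 for Cyld and 1.16 for Zc3h12a. Nfkbiz was at -0.87. Leaving out DEX+TNF 1 and 2, the largest values were 0.94 for Tnip1 and 0.90 for Tnfaip3, while Nfkbib and Cyld stood at -0.049 and -0.0041. The size of the response after DEX thus moved with the libraries counted.

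The interaction subtracts the log2 fold change for TNF given after vehicle from that for TNF given after DEX, and so tests whether the responses differed. With all libraries, 0 of the 9 and 0% of all tested genes were called by edgeR, and DESeq2 called 9 genes (0.0762%), with none of the 9 inhibitors among them. No member had an unadjusted p under 0.05 in edgeR, which 642 genes (5.44%) had. The values of 8 members were below 0, from -0.89 for Nfkbia (SE 0.80) and -0.88 for Zc3h12a (SE 0.42) to -0.25 for Cyld (SE 0.43), and Tnfaip3 stood at 0.42 (SE 1.13). Leaving out DEX+TNF 3 and 4, values ran from -1.46 for Nfkbiz to 1.36 for Tnfaip3, with 6 of the 9 above 0. Leaving out DEX+TNF 1 and 2, all 9 were below 0, from -0.25 for Nfkbiz to -3.40 for Nfkbia.

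**Figure D4:**
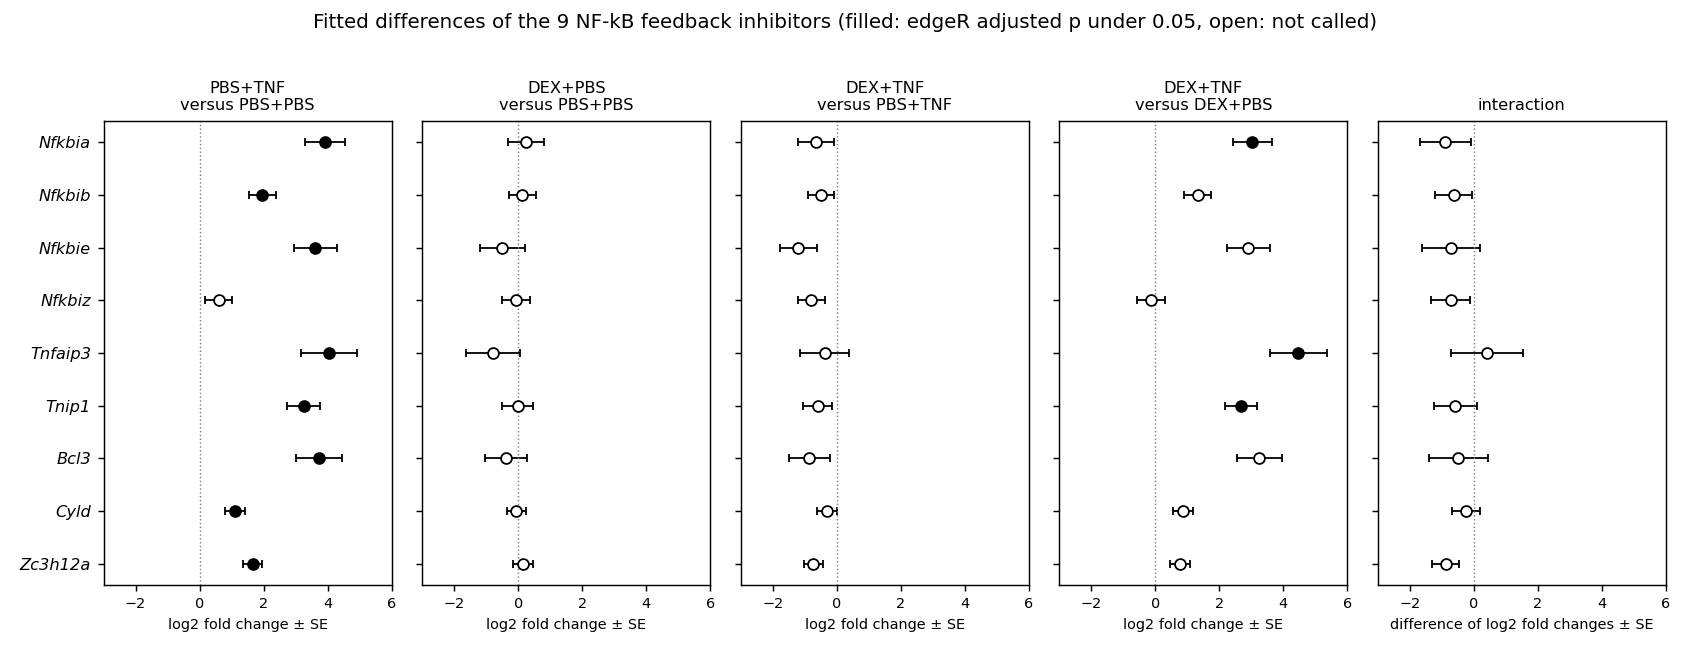
Log2 fold change ± SE of the 9 genes in the 4 comparisons and the interaction, fitted over all 16 libraries with edgeR, with filled points for an adjusted p under 0.05. In PBS+TNF versus PBS+PBS 8 points are filled, in DEX+TNF versus DEX+PBS 3 (Nfkbia, Tnfaip3 and Tnip1), and in the other panels 0.

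Other restraints of NF-kB and TNF signalling were read from a list of 30 genes, of which 24 were tested. After TNF alone 7 of the 24 rose and 0 fell, with a median log2 fold change of 0.52 over the list. Of all tested genes, 7.15% were called higher in this comparison. The 7 were Socs3, Socs1, Nfkbid, Tnip2, Zfp36, N4bp1 and Rnf125. Socs3, a suppressor of cytokine receptor signalling, rose by 4.36 on the log2 scale (SE 0.61, adjusted p = 0.000663), and its relative Socs1 by 3.44 (SE 0.70, adjusted p = 0.00482), from at most 0.514 CPM in PBS+PBS. Nfkbid, the gene of the third nuclear IkB protein, IkBNS, rose by 2.76 (SE 0.78, adjusted p = 0.0282) and stayed at 3.02 CPM or less. In DEX+TNF versus DEX+PBS, Socs3 alone of the 24 was called (log2 fold change 2.86, SE 0.59, adjusted p = 0.0486), where 0.322% of all tested genes were called higher. In the 4 DEX+TNF libraries Socs3 held 43.9, 50.2, 9.19 and 5.44 CPM, so that libraries 1 and 2 were above libraries 3 and 4 as for most of the 9, but all 4 were under the PBS+TNF range of 109 to 182 CPM. The log2 fold change of Socs3 in DEX+TNF versus PBS+TNF was -2.50 (SE 0.56, adjusted p = 0.0679). Socs1 held 0.565, 0.323, 0.204 and 0.199 CPM in DEX+TNF, against 1.45 to 3.85 CPM in PBS+TNF and 0.102 to 0.916 CPM in DEX+PBS. Libraries 1 and 2 of DEX+TNF were thus not in the PBS+TNF range for this gene. Its log2 fold change was -0.08 in DEX+TNF versus DEX+PBS (SE 0.73, adjusted p = 0.997) and -3.07 in DEX+TNF versus PBS+TNF (SE 0.68, adjusted p = 0.0641). Nfkbid stood at 1.14 (SE 0.77, adjusted p = 0.675) and -1.49 (SE 0.72, adjusted p = 0.424) in these comparisons. DESeq2 called 2 of the 24 lower in DEX+TNF versus PBS+TNF, where edgeR called 0, and 3 higher in DEX+TNF versus DEX+PBS. Of all tested genes, DESeq2 called 2.32% in either direction in the first comparison and 1.85% higher in the second. The single edgeR call in DEX+TNF versus DEX+PBS became 0 without a low-count filter and when any one library other than DEX+TNF 3 and 4 was left out.

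Genes that encode the proteins restrained by the 9 partly rose in RNA together with them. Among 15 genes of NF-kB subunits and the kinases that release them, 8 rose after TNF alone (Rel, Relb, Nfkb2, Nfkb1, Rela, Ikbke, Tbk1 and Map3k14) and 1 fell (Ikbkg, the gene of the regulatory subunit NEMO), with a median log2 fold change of 1.13. Of 12 genes of the TNF receptor complex, 5 rose (Birc3, Tnfrsf1b, Ripk1, Rnf31 and Traf2) and 0 fell. Both counts of rises stand beside 7.15% of all tested genes called higher after TNF alone. In DEX+TNF versus DEX+PBS, Nfkb2, Rel and Relb were called higher in the first of these lists and 0 genes in the second, where 0.322% of all tested genes were. Neither list had a call in the other 3 contrasts. The median log2 difference of the 15 subunit and kinase genes from the PBS+PBS mean was 1.27 and 1.44 in DEX+TNF libraries 1 and 2, and -0.17 and -0.05 in libraries 3 and 4. Of the 16 tested NF-kB target genes outside the 9, 12 rose after TNF alone and 6 in DEX+TNF versus DEX+PBS, and 0 fell in either. Of all tested genes, edgeR called 7.15% and 0.322% higher in these comparisons, and DESeq2 called 1.85% higher in the second. The calls in DEX+TNF versus DEX+PBS varied with the setting. The 6 target genes became 12 with DESeq2 or without DEX+TNF 3 or 4, and 0 without a low-count filter or when any one of the other libraries was left out. The 3 subunit genes became 6 with DESeq2, 8 without DEX+TNF 3 or 6 without DEX+TNF 4, and 0 in the same settings as the targets. DEX+TNF 3 and 4 were set apart by their low levels of such genes, so that the counts without either are a description. An unadjusted p under 0.05 in edgeR was held by 15.1% of all tested genes without DEX+TNF 3 and by 14.5% without DEX+TNF 4, against 10.4% with all libraries. Nfkb2, Relb and Birc3 are on the list of target genes as well as on one of the others.

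The genes with the pattern most like a member over the 16 libraries were found by the root mean square difference of their log2 levels, each taken relative to its PBS+PBS mean, among the 7816 tested genes that averaged 5 CPM or more. Nearest to Nfkbia were Birc3 (0.351), Relb (0.402), Neurl3 (0.418), Tnip1 (0.470) and Rel (0.493). Nearest to Tnfaip3 were Parp14 (0.669), Cxcl16 (0.738), Gbp7 (0.762), Atp10b (0.763) and Nfkb2 (0.795). Among the nearest to Zc3h12a were Klf5 (0.247), Ptpn1 (0.279), Dab2ip (0.280) and Efhd2 (0.291). One member, Tnip1, was thus among the 5 nearest to another, Nfkbia. The distances carry no test, and are smaller for genes with smaller changes, such as those near Zc3h12a.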

How the data were processed

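RNA was measured in 16 libraries of sorted mouse Paneth cells, 4 per injection group. The authors deposited raw counts per Ensembl gene, 1 column per library. The submitters' processing notes name FastQC 0.12, STAR 2.7.10a, DESeq2 and mm39, and the methods give GENCODE M30; the program that counted reads, its handling of reads that match several genes and its use of strand are not given in the sources used here, so counts where genes on opposite strands overlap are uncertain. GENCODE M39, on the same assembly, named 54749 of 55414 identifiers and left 665 unnamed.

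Genes were kept with filterByExpr of edgeR 4.0.16 (R 4.3.3), scaled by trimmed mean of M-values (TMM) and fitted with a mean per group over all 16 libraries (robust quasi-likelihood). Tests were two-sided, with Benjamini-Hochberg adjustment over the 11809 tested genes and calls at an adjusted p of 0.05. The standard error (SE) is the log2 fold change divided by the square root of F. The procedure was tested on simulated data in which the libraries of a group shared the same expected levels, unlike the uneven DEX+TNF group. Named genes were the 9 members, the 3 called genes with the largest change after TNF among the other restraints, 3 glucocorticoid-induced genes and the 5 most alike genes of 3 members (log2 CPM with a prior count of 2); other called list genes are named without values. Results of some genes that these rules or lists name are not reported here. Members, gene lists and alternatives were chosen with earlier results of these data known. The alternatives were other scalings, low-count filters, DESeq2 1.42.0, a non-robust fit, fewer libraries and a replicate block. Library totals were 7286307 to 15832111 counts, and few of these fell on Nfkbie and Tnfaip3 at rest; all groups share an estimate of the spread, which the uneven DEX+TNF group enters. The labels number the replicates, and the methods speak of individual mice. The numbers were not used as pairs, since only those of number 2 all correlated positively in their deviations from the group means.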

Additional observations from a re-analysis of the deposited data

Results flagged for a closer look

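Cyld in PBS+TNF was the single group of values with a library far from its fellows: library 2 held 52.3 CPM and the other three 34.5 to 37.1 CPM, a gap of 0.854 of the whole range, above Dixon's critical value for 4 libraries. The 9 genes were screened in 4 groups each, 36 groups in all, and chance alone marks about 1 in 20. Without this library the log2 fold change of Cyld after TNF was 0.96 with an adjusted p of 0.0812 (edgeR), and the call was lost.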

How the results depend on the processing

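The count of 8 genes called after TNF alone stayed at 7 to 8 when each library was left out in turn and at 8 under all other alternatives, and the counts of 0 in DEX+PBS versus PBS+PBS, in the interaction and in DEX+TNF versus PBS+TNF stayed at 0 under every alternative planned. The 3 calls in DEX+TNF versus DEX+PBS became 5 with DESeq2, 0 without a low-count filter, 0 with only the 2 groups compared and 0 with a replicate block, and 0 to 7 when each library was left out (7 without DEX+TNF 3, 6 without DEX+TNF 4, 0 for each of the others). The counts without DEX+TNF 3 or DEX+TNF 4 are a description, since these libraries held the lower levels of most of the 9. The replicate block changed no other count of members called. Correlations between the deviations of same-numbered libraries were 0.153 to 0.412 for number 2 and reached from below 0 to above 0 for the others (-0.365 to 0.504 in all), and 7 of 16 libraries correlated best with a library of their own number. The libraries were not treated as pairs, as not all correlations were above 0. In DEX+TNF versus DEX+PBS, the calls among other restraints (1), subunits and kinases (3) and NF-kB targets (6) also went to 0 with the block and with only the 2 groups compared, which also took the 5 glucocorticoid-induced genes of DEX+TNF versus PBS+TNF to 0. Over all tested genes, edgeR called 1476 in PBS+TNF versus PBS+PBS (916 to 1698 leaving out each library, 1165 to 2061 otherwise), 40 in DEX+TNF versus PBS+TNF (0 to 102, 0 to 274) and 40 in DEX+TNF versus DEX+PBS (0 to 362, 0 to 259), 1 in DEX+PBS versus PBS+PBS (0 to 2, 1 to 7) and 0 in the interaction (0 to 1, 0 to 9). Log2 fold changes that crossed 0 when a library was left out were those of Nfkbiz (-0.28 to 0.33), Tnip1 (-0.21 to 0.11) and Cyld (-0.16 to 0.056) in DEX+PBS versus PBS+PBS, Nfkbiz (-0.70 to 0.095) in DEX+TNF versus DEX+PBS, and Tnfaip3 in DEX+TNF versus PBS+TNF (-0.94 to 0.024) and in the interaction (-0.14 to 0.82). Of these, none was called. Chosen after the data were seen, leaving out DEX+TNF 3 and 4, or 1 and 2, gave 8 calls after TNF alone and 0 in DEX+PBS versus PBS+PBS; contrasts that use DEX+TNF were then not tested. The cause of the changes above was not tested, beyond the libraries that were left out. All groups share an estimate of the spread: without DEX+TNF 3 and 4, the SE after TNF alone went from 0.63 to 0.21 for Nfkbia and from 0.87 to 0.34 for Tnfaip3. The fewest counts lay behind Nfkbie (65 over PBS+PBS and 50 over DEX+PBS) and Tnfaip3 (142 over DEX+PBS).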
